A study of Mus musculus with 117 samples.

Results

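Normal lung cells were represented by 10 of the 117 arrays of a mouse expression series, chosen as every sample whose title named lung and a Prom1 sort. Prom1 (prominin 1) is a surface glycoprotein used to mark stem and progenitor cells, and the series set sorted normal cells and tumours of several organs side by side. Lung was dissociated to single cells, the cells were separated with anti-Prom1 magnetic beads, and total RNA was hybridised to Affymetrix arrays. The lung arrays comprised 3 of Prom1-positive and 7 of Prom1-negative cells. They were compared with 41 arrays of sorted normal cells from prostate (3 positive, 5 negative), intestine (3 positive, 5 negative), liver (4 positive, 7 negative), stomach (3 positive, 4 negative) and uterus (4 positive, 3 negative). All 51 samples were from C57BL/6 mice in a normal disease state, and the labels used here give no genotype, age or sex for them. A further 14 arrays of unsorted bronchial papillary adenoma, a lung tumour, were used for description only.

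The lung is built for gas exchange. Flat alveolar type 1 cells lie against a dense capillary bed, cuboidal type 2 cells make the surfactant that keeps alveoli open, and club and ciliated cells line the airways. Alveolar macrophages patrol the air space, and elastic-fibre-forming fibroblasts hold the alveolar walls.

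Values are log2 signals of 1 probe set per gene. The difference reported for a gene is the lung level, as the mean of its Prom1-positive and Prom1-negative means, minus the mean of the other 5 tissues, each built the same way. A gene was called when its Benjamini-Hochberg adjusted p in limma was under 0.05 over all 14104 genes tested. The labels do not say whether the arrays of a group were hybridised with RNA of separate animals, and the p-values cover the spread between arrays alone, which may be technical. The number of arrays limits the precision. A group below its array's median signal may be at background, and a difference against it is then a lower bound. In bulk RNA such as this, fewer cells of a type and less RNA per cell cannot be told apart.

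Several arrays stood apart. Lung negative 7 correlated with the mean of the other lung arrays at r = 0.918 across genes, where the other 9 lung arrays lay between 0.947 and 0.988, and it was low in endothelial, fibroblast and alveolar type 1 genes. Prostate negative 3 carried high signal of lung genes, with Sftpc at 8.72, Scgb1a1 at 9.68 and Chil3 at 10.71. Prostate positive 1 had Sftpc at 7.86 and Chil3 at 6.51. In the other direction, lung positive 2 carried signal of prostate genes, with the prostate list at a mean of 5.39 against 3.12 to 4.01 in the other 9 lung arrays, and with the secretory genes Pbsn at 7.37, Spink1 at 6.20 and Tgm4 at 6.00. The numbers that open the sample titles place both prostate arrays beside lung arrays, and what gave rise to the signal was not tested. Those numbers also define a subset of the 21 arrays with the lowest numbers (7 of lung, the rest of prostate, intestine and liver) and one of 14 arrays in a middle range (3 of lung, the rest of liver, intestine and stomach), in which some results were computed again. The subsets lack some sorts. In the first, every liver array is Prom1-negative, while lung has both sorts. In the second, intestine is 1 Prom1-negative array and stomach 2 Prom1-negative arrays, set against both sorts of lung. The upper quartile of signal was under 6 in 6 arrays, lowest at 5.05 in 1 of the 2 arrays titled stomach negative 2 and including lung positive 4 at 5.85. That stomach array and lung positive 4 both belong to the middle-range subset. The 3' minus 5' signal of Gapdh, a measure of RNA integrity, ranged from 0.35 to 1.24 in lung and from 0.21 to 2.17 in the other tissues. That of Actb moved with the lung sorts, at 1.0 to 1.12 in the Prom1-positive and 0.41 to 0.69 in the Prom1-negative arrays. Outside lung it ranged from 0.34 to 2.41. It moved with the liver sorts too, at 1.37 to 1.78 in positive and 0.43 to 0.83 in negative arrays. The sorts overlapped in prostate, intestine, stomach and uterus.

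Prom1 itself was measured first, since it defined the sorts. Its signal was 6.55, 6.57 and 6.55 in the Prom1-positive lung arrays and ranged from 5.92 to 7.37, with a median of 6.53, in the Prom1-negative ones. The lung sorts therefore overlapped, with means of 6.56 ± 0.01 (SD, n = 3) in positive and 6.55 ± 0.46 (SD, n = 7) in negative cells. In prostate the corresponding means were 10.18 ± 0.44 and 8.42 ± 0.54, in stomach 11.85 ± 0.18 and 10.21 ± 0.78, and in uterus 11.37 ± 0.48 and 9.91 ± 0.54, with no overlap between the sorts in these 3 tissues. Intestine, at 9.20 ± 1.16 in positive and 8.66 ± 0.64 in negative cells, and liver, at 3.17 ± 0.69 and 2.94 ± 0.36, overlapped as lung did. Lung as a whole was lower in Prom1 than stomach by 4.47, uterus by 4.08, prostate by 2.75 and intestine by 2.38 on the log2 scale, and higher than liver, where every array was at or under 4.14, by 3.50. The difference from the mean of the 5 tissues was -2.04 ± 0.21 (SE, adjusted p = 4.94e-11), and it was -0.31 (adjusted p = 0.205) among the 21 lowest-numbered arrays and -0.23 (adjusted p = 0.787) among the 14 of the middle range, which hold different sets of tissues.

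Lung differed from the other tissues in 7528 of the 14104 genes tested (53.4%), with 3493 higher (24.8%) and 4035 lower (28.6%). Of these, 1992 were higher by more than 1 and 1540 were lower by more than 1. The median over all genes tested was -0.09. The tissue closest to lung was uterus (r = 0.899 across gene means), followed by prostate (0.879), liver (0.782), stomach (0.724) and intestine (0.679). Counts of called genes against single tissues followed a like order, with 4495 against uterus (31.9%), 4968 against prostate (35.2%), 6931 against liver (49.1%), 7842 against stomach (55.6%) and 8005 against intestine (56.8%). Without lung positive 2 6845 genes differed from the other tissues, 3189 of them higher. Lung was called higher than each of the 5 tissues in 697 genes (4.94%) and lower than each in 251 genes (1.78%).

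All 10 lung arrays lay above all 41 others in 39 genes (0.277% of genes tested), and the 15 of these with the largest difference, leaving out genes with predicted or clone names, were led by Sftpc, Scgb1a1 and Chil3. Without lung negative 7 the count was 91, without prostate negative 3 it was 41, without both it was 91, and without lung positive 2 it was 50. Below all others lay 10 genes (0.0709%), 11 without lung negative 7, 11 without prostate negative 3, 12 without both and 14 without lung positive 2.

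**Figure D1:**
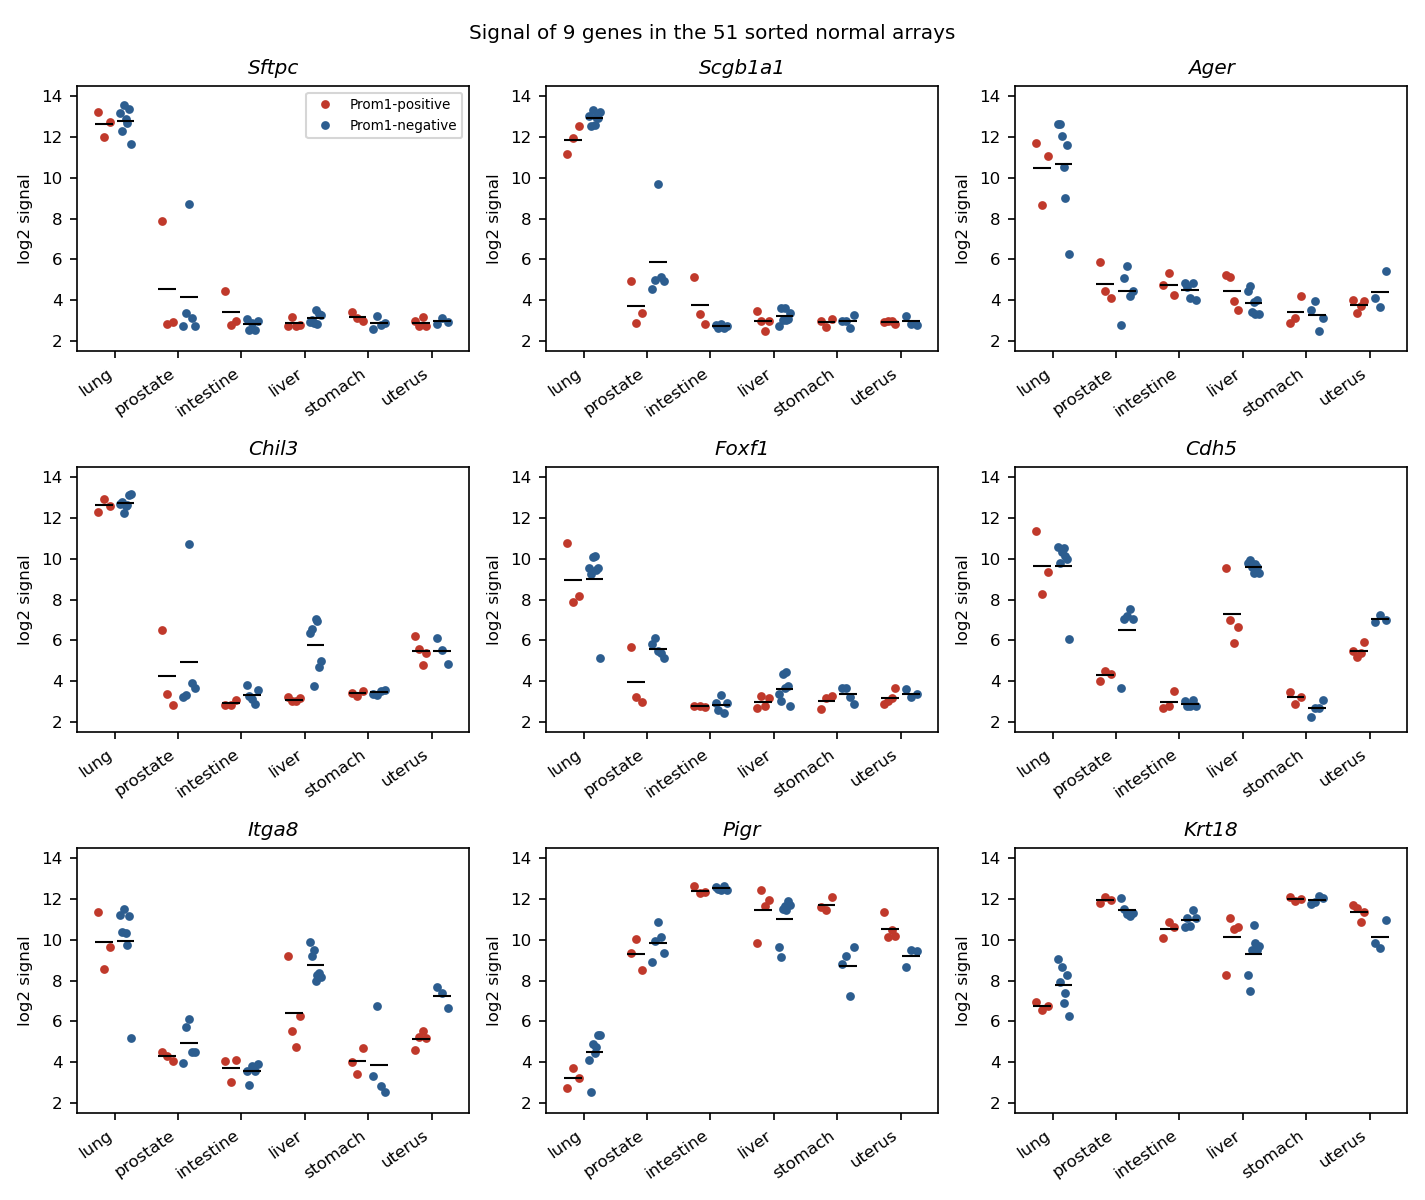
Log2 signal of 9 genes in each of the 51 sorted arrays, by tissue, with red points for Prom1-positive and blue points for Prom1-negative cells and a black line at each group mean. Lung lies above all other arrays for Sftpc, Scgb1a1, Ager and Chil3 and below all others for Pigr, and lung negative 7 falls to 6.09 for Cdh5 and 5.14 for Foxf1.

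Surfactant genes came first. Sftpc, which encodes the surfactant protein made by alveolar type 2 cells, had a lowest, median and highest signal of 11.63, 12.79 and 13.58 in lung arrays, against 2.53, 2.95 and 8.72 in the other arrays. The groups did not overlap, and the highest of the other arrays was prostate negative 3. The difference was 9.44 ± 0.41 (SE, adjusted p = 5.7e-23), and it was 9.53 without lung negative 7. Sftpa1, a collectin that binds surfactant lipid and microbes, had 8.71, 10.33 and 12.04 in lung against 2.46, 2.89 and 5.24 elsewhere, a difference of 7.14 ± 0.28 (SE, adjusted p = 1.69e-24). Sftpd, the related collectin, overlapped: 7.24, 9.20 and 11.39 in lung against 2.78, 3.70 and 11.64 elsewhere, the last in a Prom1-positive uterus array. It rose by 3.90 ± 0.29 over the mean of the 5 tissues, but lay 1.15 below uterus.

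Of the 13 genes of the surfactant and type 2 list that passed the filter on low signal, 11 were higher and none lower, against 24.8% higher and 28.6% lower over all genes tested, with a median difference of 2.29. Cxcl15, a lung chemokine also known as lungkine, rose by 5.41 ± 0.27. The phosphate transporter Slc34a2 rose by 3.62 ± 0.34, and Lpcat1, which makes surfactant phosphatidylcholine, by 2.29 ± 0.26. The mean signal of the list ran from 6.74 to 9.24 in lung arrays and from 3.69 to 5.82 in the others, so the groups did not overlap. In the adenomas Sftpc had 13.68, 13.92 and 14.09 (lowest, median and highest of 14) and Sftpa1 12.96, 13.41 and 13.57.

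Alveolar type 1 genes were called higher in 9 of 11 and lower in none, with a median of 2.16. Ager, the receptor for advanced glycation end products and a type 1 cell marker, had 6.28, 11.35 and 12.65 in lung against 2.51, 4.09 and 5.87 elsewhere. The 2 sets of arrays did not overlap, although lung negative 7 at 6.28 came close to prostate positive 1 at 5.87. Its difference was 6.41 ± 0.43 (SE, adjusted p = 9.35e-17) and 6.78 without lung negative 7. Cav1 (caveolin 1) rose by 4.87 ± 0.35 and Emp2 by 4.56 ± 0.41, and both are also made by endothelium. Clic5, a chloride intracellular channel protein, rose by 3.45 ± 0.36, the homeodomain protein Hopx by 2.03 ± 0.27 and podoplanin (Pdpn) by 2.16 ± 0.26. Pdpn lay 0.74 below its highest tissue.

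Secretoglobins marked the airway. Scgb1a1, the club cell secretory protein, had 11.14, 12.75 and 13.33 in lung against 2.50, 2.98 and 9.68 elsewhere, a difference of 9.01 ± 0.30 (SE, adjusted p = 8.98e-27). Without prostate negative 3 the highest other array was at 5.13. Scgb3a2 had 7.66, 10.50 and 11.97 in lung against 2.54, 3.27 and 5.71 elsewhere, and rose by 6.51 ± 0.24. Bpifa1, a secreted antimicrobial and surface-active airway protein, ranged more widely within lung, with 3.49, 10.04 and 12.01 against 2.40, 2.73 and 3.42 elsewhere. Its low value was lung negative 2, under that array's median signal, and its difference was 6.02 ± 0.46. Club and airway secretory genes were called higher in 8 of 12 and lower in 2, with a median of 2.15. Cbr2, a carbonyl reductase, rose by 4.06 ± 0.42 and Scgb3a1 by 4.75 ± 0.32. The cytochrome Cyp2f2 rose by 2.64 ± 0.40 over the 5-tissue mean while lying 2.48 below liver.

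Ciliated cell genes were higher in 7 of 8 and lower in 1, with a median of 1.23. Tmem212 had 5.25, 6.85 and 7.73 in lung against 3.08, 3.48 and 4.85 elsewhere and did not overlap. Rsph1, a radial spoke protein of the axoneme, was higher by 1.5 ± 0.14, also with no overlap. Foxj1, the regulator of motile cilia, rose by 0.46 ± 0.15 (adjusted p = 0.0077), with all arrays between 2.59 and 4.62, around the array medians of 3.63 to 4.01. It was not called with all 117 samples in the fit (adjusted p = 0.081) or among the 14 middle-range arrays (0.31, adjusted p = 0.691). Of the basal, goblet and neuroendocrine airway genes, 1 of 9 was higher and 7 were lower, with a median of -1.34. The falls were against stomach (7 lower, median -2.78), prostate (5) and intestine (4), with none lower against liver (median 0.10) or uterus. Spdef, a goblet cell transcription factor, had 2.73, 3.15 and 3.77 in lung against 2.92, 5.85 and 9.78 elsewhere.

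Promoter sequence in the 250 bases before the transcription start is shown for those of the named rising genes in which the letters CTCAAG occur on either strand, since these letters form the core recognised by NKX2-1, the lung and thyroid homeodomain factor known to act on surfactant and secretoglobin genes. RefSeq promoters on GRCm38.p6 were matched for 11 of the 15 named rising genes, and 3 of the 11 held the letters, against 13.3% of all 32851 promoter windows. No promoter was available for Sftpc, Scgb1a1, Scgb3a2 or Ear3, so these genes were not searched. Capitals mark the match, and each sequence runs 5' to 3' along its gene.
Sftpa1 (chr14:41131538-41131787, + strand): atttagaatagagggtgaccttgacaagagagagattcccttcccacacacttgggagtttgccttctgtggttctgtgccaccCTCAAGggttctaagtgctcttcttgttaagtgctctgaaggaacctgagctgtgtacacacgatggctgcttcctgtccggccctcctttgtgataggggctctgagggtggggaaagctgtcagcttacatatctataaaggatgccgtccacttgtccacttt
Bpifa1 (chr2:154142630-154142879, + strand): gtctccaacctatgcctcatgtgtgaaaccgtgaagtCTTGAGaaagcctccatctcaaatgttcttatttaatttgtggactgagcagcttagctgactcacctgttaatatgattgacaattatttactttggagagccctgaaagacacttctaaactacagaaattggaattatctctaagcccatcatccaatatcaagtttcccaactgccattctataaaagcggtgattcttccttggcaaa
Krt79 (chr15:101940325-101940574, - strand): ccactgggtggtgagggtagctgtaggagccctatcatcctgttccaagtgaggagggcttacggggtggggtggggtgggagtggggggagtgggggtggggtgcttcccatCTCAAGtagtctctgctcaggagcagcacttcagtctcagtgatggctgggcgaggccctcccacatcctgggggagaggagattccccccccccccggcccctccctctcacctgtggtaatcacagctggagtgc
Nkx2-1 itself did not pass the filter on low signal and was under the array median in all 10 lung arrays, at 2.63 to 3.24.

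Chitinase-like and ribonuclease genes of alveolar macrophages and airway were among the largest differences. Chil3 (Ym1), a chitinase-like lectin secreted by macrophages, had 12.23, 12.66 and 13.17 in lung against 2.84, 3.57 and 10.71 elsewhere, a difference of 8.46 ± 0.46 (SE, adjusted p = 1.65e-19). No array outside lung but prostate negative 3 exceeded 7.03. Chil4 (Ym2) had 11.96, 12.54 and 13.25 in lung against 3.28, 4.67 and 10.72 elsewhere, with the high values outside lung in stomach, whose median was 9.02, and in prostate negative 3 at 10.02. Ear3, an eosinophil-associated ribonuclease, rose by 7.20 ± 0.50. Chil3 and Chil4 are near-identical copies, as are the Ear genes, so which copy gave the signal is uncertain.

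**Figure D2:**
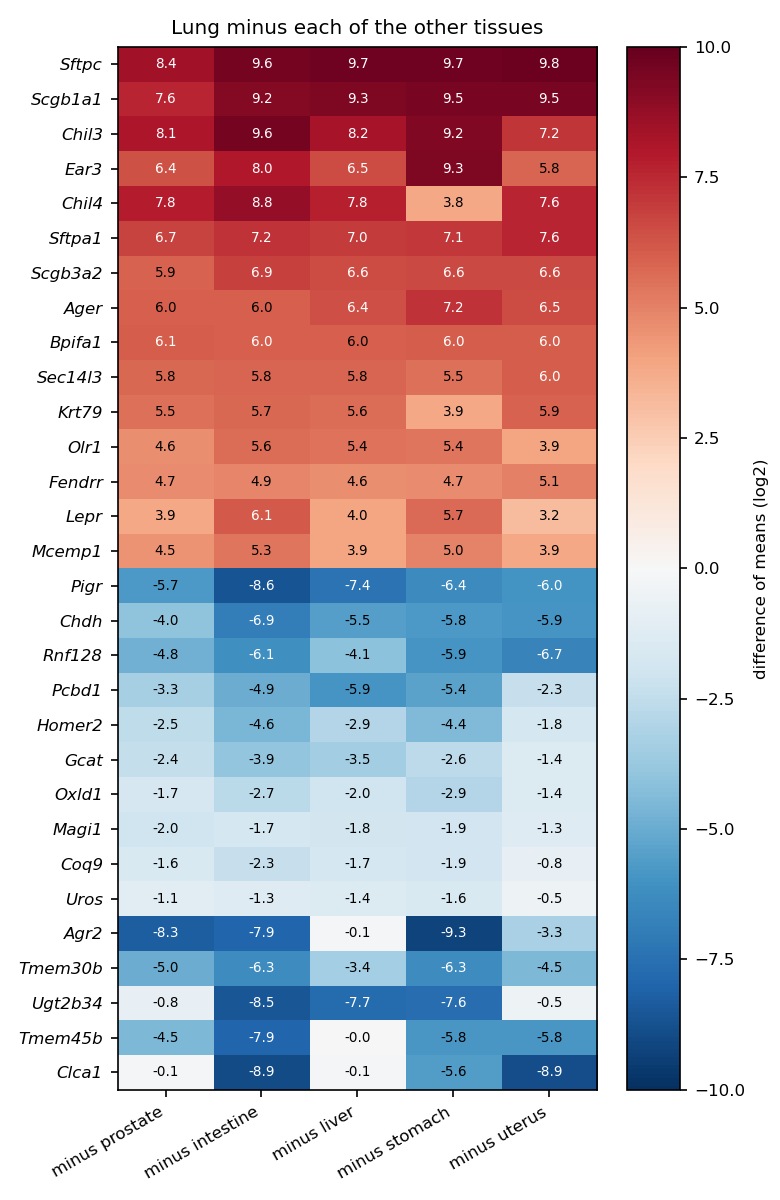
Differences in log2 signal between the lung mean and each other tissue mean for the 15 named rising genes and the 15 named falling genes. Chil4 was 3.8 above stomach against 7.6 to 8.8 above the other 4 tissues, while Agr2 and Tmem45b against liver, and Clca1 against liver and prostate, lie near 0.

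All 15 alveolar macrophage genes were higher, with a median of 3.37. Siglecf, a sialic acid receptor of alveolar macrophages and eosinophils, had 7.06, 8.18 and 10.16 in lung against 2.54, 3.62 and 6.56 elsewhere. Itgax (CD11c) had 7.23, 8.93 and 10.18 against 3.35, 4.75 and 6.86. Neither gene's arrays overlapped between lung and the other tissues. Atp6v0d2, a proton pump subunit, rose by 5.01 ± 0.30. The scavenger receptor Marco was 2.72 ± 0.40 above the 5-tissue mean and 1.11 below liver, and Pparg 1.68 ± 0.32 above that mean and 0.26 below its highest tissue. The mean signal of the list was 8.95 to 10.84 in lung arrays and 5.41 to 7.92 in the others. The mast cell, basophil and eosinophil list, which shares Siglecf, had 3 of 12 genes higher, near the 24.8% of all genes, and a median of -0.06.

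General macrophage and monocyte genes rose in 15 of 17 and fell in 1, with a median of 1.56. Against liver alone, 5 of the 17 were higher (29.3% of all genes) and 4 lower (19.8%). Cd68, a lysosomal macrophage protein, rose by 3.37 ± 0.34 and Cd14, the lipopolysaccharide co-receptor, by 3.34 ± 0.37. The falling gene was Clec4f, the Kupffer cell lectin, with 2.73, 2.78 and 4.01 in lung and up to 11.96 in liver. Without liver its difference was -0.01 (adjusted p = 0.957).

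Dendritic cell genes were higher in 10 of 10 (median 1.77). The chemokine Ccl17 had 5.03, 8.25 and 10.98 in lung against 3.13, 3.79 and 6.07 elsewhere and rose by 4.50 ± 0.33. Ccl22, which shares a receptor with Ccl17, rose by 3.88 ± 0.30. Lung negative 7 was the lowest lung array for both. MHC class II genes were higher in 9 of 9 (median 2.35), among them H2-Ab1 by 2.61 ± 0.30 and H2-Ob by 3.59 ± 0.32.

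Lymphocyte genes rose less evenly. In the T and NK cell list 9 of 17 were higher and none lower, with a median of 0.80, but among the 21 lowest-numbered arrays none was higher, 3 were lower and the median was -0.06, where 22.3% of all genes were called higher and 26.4% lower. The liver arrays of that subset are all Prom1-negative, and the T and NK cell and B cell lists were higher in negative than in positive liver arrays. The part of the missing sort in the values of that subset was not tested. Against intestine alone 2 were higher (26.4%) and 6 lower (30.3%). Ccl5 (RANTES), a chemokine released by lymphocytes, had 8.01, 10.24 and 11.45 in lung against 3.46, 8.31 and 12.20 elsewhere, so the groups overlapped. It was 2.21 ± 0.30 above the 5-tissue mean, but 0.11 (adjusted p = 0.84) among the 21 lowest-numbered arrays. Cd3d, part of the CD3 signalling unit of T cells, was 1.30 ± 0.30 above and 0.17 (adjusted p = 0.704) in the same subset. B cell genes were higher in 9 of 12 (median 1.38), with Ms4a1 (CD20) up by 3.0 ± 0.45 and Cd22 by 2.42 ± 0.29. Among the 21 lowest-numbered arrays 4 of these 12 were higher (median 0.60), and Ms4a1 was not called (1.35, adjusted p = 0.0638).

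Neutrophil genes were higher in 8 of 12 (median 1.36). S100a8, a calcium-binding protein abundant in neutrophils, had 5.48, 11.69 and 12.74 in lung against 2.61, 5.31 and 11.88 elsewhere, and rose by 4.48 ± 0.48. Its partner S100a9 rose by 4.10 ± 0.51. The groups overlapped for both, with liver negative 1 the highest array outside lung and Prom1-positive array 1 the lowest in lung. All 8 megakaryocyte and platelet genes were higher (median 1.98). Ppbp, a platelet chemokine, had 2.77, 9.83 and 11.89 in lung against 2.44, 4.40 and 8.90 elsewhere, with lung negative 7 at the low end. Haemoglobin genes Hbb-b2 and Hba-a1 were higher by 3.40 ± 0.48 and 3.30 ± 0.50, while the erythroid list as a whole had 3 of 6 higher and 1 lower. Hbb-b2 and Hba-a1 differed by 1.94 and 1.88 among the 21 lowest-numbered arrays, and by 1.23 (adjusted p = 0.3) and 1.43 (adjusted p = 0.211) among the 14 middle-range arrays, where none of the 6 was called. The part of blood cells in the lung differences was not tested.

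Endothelial genes were among the lists with the largest medians. All 15 pan-endothelial genes rose (median 3.11, or 3.39 without lung negative 7), and 19 of 20 lung capillary genes rose with none lower (median 4.24, or 4.49 without that array). Cdh5 (VE-cadherin) had 6.09, 10.06 and 11.36 in lung against 2.26, 5.36 and 9.97 elsewhere. Lung overlapped with liver, and through lung negative 7 also with prostate and uterus. The difference was 4.45 ± 0.37 (SE, adjusted p = 7.59e-14). Pecam1 (CD31) rose by 4.12 ± 0.36, claudin 5 (Cldn5) by 5.16 ± 0.37 and the angiopoietin receptor Tek by 4.64 ± 0.39. Robo4, an endothelial guidance receptor, was 2.07 ± 0.36 above the 5-tissue mean and 0.87 below liver. Against liver alone, 6 of the 15 pan-endothelial genes were called higher (29.3% of all genes), with a median of 0.65. All 15 were called higher against prostate (15.6% of all genes), intestine (26.4%) and stomach (29.9%), and 14 against uterus (13%).

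The lung capillary genes set lung further from liver, with 14 of 20 called higher against it and a median of 2.42. Car4, the carbonic anhydrase of the capillary surface, had 9.54, 10.34 and 11.29 in lung against 3.03, 3.64 and 10.25 elsewhere, the last in intestine. It overlapped, and rose by 5.26 ± 0.31. Aplnr, the apelin receptor, was up by 5.46 ± 0.41, the sodium channel Scn7a by 5.27 ± 0.27, Tmem100 by 5.04 ± 0.31, the calcitonin receptor-like receptor Calcrl by 5.02 ± 0.31 and the endothelin receptor Ednrb by 3.46 ± 0.47. The mean signal of the list was 7.06 to 10.75 in lung arrays, and 8.61 to 10.75 without lung negative 7, against 4.80 to 7.91 in the others.

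Vascular signalling genes for nitric oxide, prostanoids and amines were higher in 11 of 14 and lower in 1 (median 2.20). Fmo2, the flavin monooxygenase of lung, rose by 4.46 ± 0.38. Gucy1a1 and Gucy1b1, the subunits of soluble guanylate cyclase, rose by 3.78 ± 0.33 and 3.6 ± 0.35. Ptgis, prostacyclin synthase, rose by 3.61 ± 0.33. The falling gene was the VIP receptor Vipr1, at -1.66 ± 0.21, which overlapped with the other tissues.

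**Figure D3:**
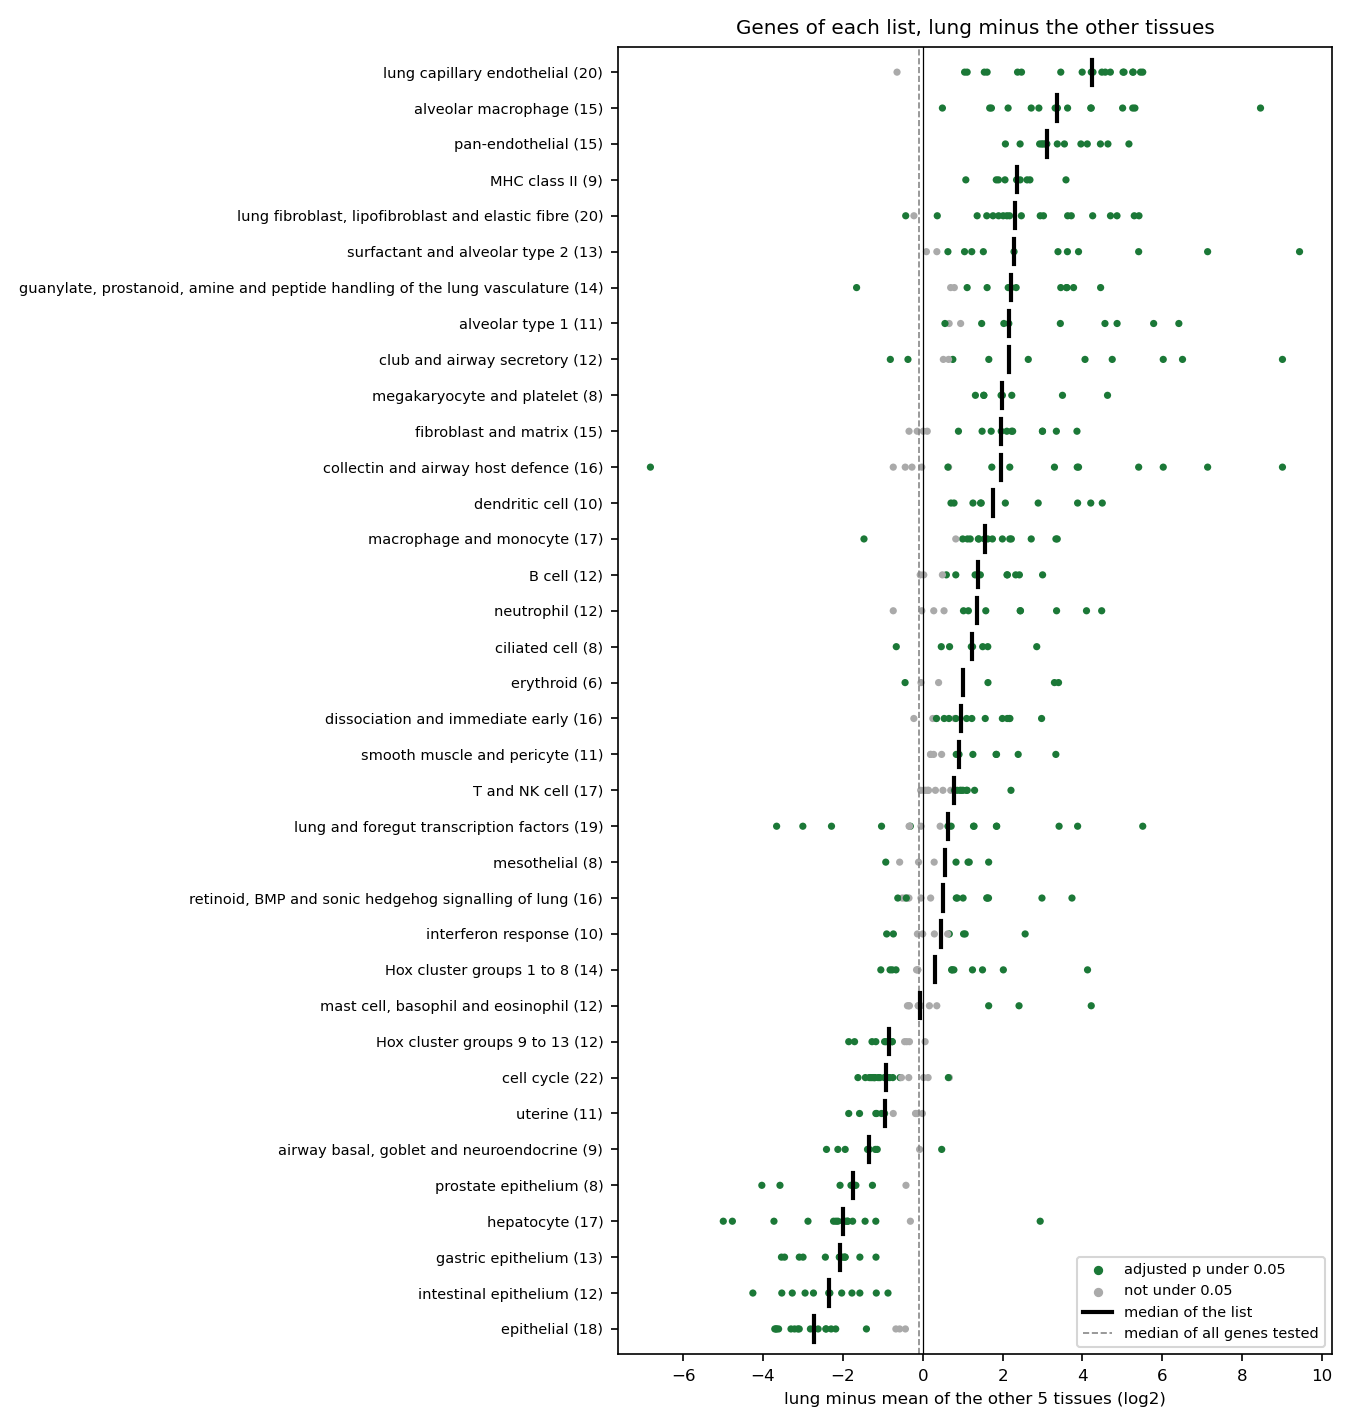
Lung minus other tissues (log2) for the tested genes of each of 36 lists, 1 point per gene, green where adjusted p was under 0.05, with a black bar at the list median and the number of genes in brackets. Lung capillary (median 4.24), alveolar macrophage (3.37) and pan-endothelial (3.11) genes lie furthest right, and epithelial genes (-2.72) furthest left.

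Mesenchymal genes were also higher. In the lung fibroblast and elastic fibre list 18 of 20 rose and 1 fell (median 2.32). Npnt (nephronectin), a ligand of integrin alpha 8, had 4.07, 9.71 and 11.51 in lung against 2.62, 3.61 and 7.51 elsewhere and overlapped only through lung negative 7. It rose by 5.30 ± 0.43, and its receptor chain Itga8 by 4.70 ± 0.47. Mgp (matrix Gla protein) rose by 5.42 ± 0.35, the methyltransferase Inmt by 4.87 ± 0.32, the microfibril protein Mfap4 by 4.26 ± 0.34 and the mesenchymal transcription factor Tcf21 by 3.72 ± 0.34. General fibroblast and matrix genes rose in 11 of 15 with none lower (median 1.97). Against uterus alone none of the 15 was higher and 10 were lower (18.9% of all genes). Dpt was 3.86 ± 0.32 above the 5-tissue mean and 0.67 below uterus, and Col3a1 3.0 ± 0.37 above and 1.51 below.

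Smooth muscle and pericyte genes rose in 7 of 11 (median 0.91), with Acta2 at 3.33 ± 0.33 and Notch3 at 2.39 ± 0.30. Mesothelial genes rose in 4 of 8 and fell in 1 (median 0.56). Upk3b, a mesothelial uroplakin, had 4.08, 6.38 and 9.19 in lung against 2.63, 3.65 and 8.25 elsewhere. The high value outside lung was again prostate negative 3, and the difference of 1.65 ± 0.40 was 0.80 (adjusted p = 0.273) among the 21 lowest-numbered arrays.

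Transcription factors of lung and foregut split, with 10 of 19 higher and a median of 0.63. The 5 lower were a share near the 28.6% of all genes. Foxf1, the forkhead factor of lung mesenchyme and capillaries, had 5.14, 9.5 and 10.79 in lung against 2.43, 3.22 and 6.10 elsewhere. Lung negative 7 alone brought the groups to overlap, and the difference was 5.51 ± 0.33 (SE, adjusted p = 5.86e-18), or 5.83 without it. Fendrr, the long non-coding RNA beside Foxf1, had 4.97, 8.01 and 9.62 against 2.56, 3.05 and 4.03 and did not overlap. The T-box factors of the lung bud rose too, Tbx4 by 3.88 ± 0.31, Tbx2 by 3.42 ± 0.38 and Tbx5 by 1.85 ± 0.13, as did Irx3 by 1.85 ± 0.25. Epithelial factors fell, Sox9 by 3.0 ± 0.21 and Foxa1 by 2.28 ± 0.35 on the log2 scale, although Foxa1 was 1.75 above its lowest tissue.

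Hox genes were read by their position in the clusters. Of groups 1 to 8, 7 of 14 genes were higher and 4 lower (median 0.30), the latter near the 28.6% lower over all genes. Of groups 9 to 13 none of 12 was higher and 8 were lower (median -0.84). Hoxa5, which is required for lung development in mice, had 6.08, 8.28 and 9.49 in lung against 2.50, 3.26 and 7.87 elsewhere and rose by 4.13 ± 0.36. Hoxb5 rose by 2.02 ± 0.32 and Hoxb4 by 1.5 ± 0.24. The uterine gene Hoxa10 and the prostate gene Hoxb13 had differences of -1.85 ± 0.21 and -1.71 ± 0.12. The falls of groups 9 to 13 were against prostate (8 lower) and uterus (7). Against liver 3 were lower (19.8% of all genes), against stomach 3 (25.7%) and against intestine none. Among the 14 middle-range arrays, which hold neither prostate nor uterus, none was lower, and Hoxa10 was at -0.07 (adjusted p = 0.948) and Hoxb13 at -0.46 (adjusted p = 0.351).

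Signalling genes of the developing lung rose in 8 of 16 and fell in 2 (median 0.52). The direction depended on the tissue. Against prostate 4 were higher and 6 lower (median -0.47), where 15.6% of all genes were higher and 19.7% lower. Against uterus 4 were higher and 8 lower (median -0.62), where 13% of all genes were higher and 18.9% lower. Against intestine 11 were higher (26.4% of all genes), against liver 10 (29.3%) and against stomach 8 (29.9%). Bmp5 had 4.04, 7.83 and 9.0 in lung against 2.56, 3.2 and 6.86 elsewhere, Bmp4 was higher by 2.99 ± 0.36 and Vegfa by 1.65 ± 0.41. The Bmp5 groups overlapped, with lung negative 7 the lowest lung array. Airway host defence genes rose in 10 of 16 and fell in 1 (median 1.96). Slpi, an antiprotease of mucosal fluid, rose by 3.87 ± 0.49. Retnla was 3.30 ± 0.54 above the 5-tissue mean and 0.85 below its highest tissue.

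General epithelial genes were the lowest list, with none of 18 higher, 15 lower and a median of -2.72. Krt18 had 6.27, 7.17 and 9.06 in lung against 7.49, 11.07 and 12.17 elsewhere. It overlapped only with low liver arrays and its difference was -3.71 ± 0.27 (SE, adjusted p = 1.42e-15). Its partner keratin Krt8 fell by 3.61 ± 0.25 on the log2 scale, E-cadherin (Cdh1) by 2.42 ± 0.42 and Cldn4 by 3.21 ± 0.35. Against liver alone 9 of the 18 were higher and 5 lower. Epcam, a pan-epithelial adhesion molecule that hepatocytes lack, was -1.41 ± 0.22 against the 5-tissue mean and 4.66 above liver. It was not called among the 21 lowest-numbered (-0.64, adjusted p = 0.0514) or the 14 middle-range arrays (-0.41, adjusted p = 0.692), and Cdh1 was at -0.82 among the 21 lowest-numbered.

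Of the 10 genes in which lung lay below all other arrays, Pigr had the largest difference. Pigr, the receptor that carries IgA across epithelia, had 2.55, 4.28 and 5.34 in lung against 7.22, 10.88 and 12.66 elsewhere. No array overlapped, and the difference was -6.82 ± 0.30 (SE, adjusted p = 7.35e-23). Chdh (choline dehydrogenase) was at -5.63 ± 0.33, the ubiquitin ligase Rnf128 at -5.54 ± 0.28 and Pcbd1, of tetrahydrobiopterin recycling, at -4.35 ± 0.21. The scaffold protein Homer2 was at -3.24 ± 0.29 and Gcat, of threonine breakdown, at -2.76 ± 0.25. Smaller falls with no overlap were Oxld1 (-2.13), the junction scaffold Magi1 (-1.76), Coq9 of coenzyme Q synthesis (-1.66) and Uros of haem synthesis (-1.18). In the adenomas Pigr had 4.34, 6.32 and 9.75, and Pcbd1 7.42, 9.27 and 10.25.

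To these the naming rule added genes lower than each tissue mean whose arrays overlapped. Agr2, a disulfide isomerase of mucus-secreting cells, had 2.94, 3.15 and 3.46 in lung against 2.71, 10.81 and 12.85 elsewhere, and liver was equally low, with a difference of -0.08. Clca1, a secreted goblet cell protein, was at -4.73 ± 0.41 with -0.13 against liver and -0.11 against prostate. Tmem30b, a flippase subunit, was at -5.09 ± 0.32, Ugt2b34, a glucuronosyltransferase, at -5.04 ± 0.28 and Tmem45b at -4.82 ± 0.33.

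Markers of the other organs were low in lung, as lists of genes specific to the tissues on the other side of the comparison. Hepatocyte genes fell in 15 of 17, intestinal genes in 12 of 12, gastric genes in 13 of 13, prostate genes in 7 of 8 and uterine genes in 6 of 11. Trf (transferrin) was the only hepatocyte gene higher in lung, at 2.94 ± 0.25, and lay 2.23 below liver. Alb had 2.75, 3.91 and 7.19 in lung, and its difference of -1.17 ± 0.26 was 0.74 (adjusted p = 0.0161) when liver was left out. In lung arrays the mean signal of the intestinal list reached at most 3.30, that of the uterine list 3.71, of the gastric list 4.06, of the hepatocyte list 4.34 and of the prostate list 5.39, the last in lung positive 2.

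Cell cycle genes were lower in 16 of 22 and higher in 1 (median -0.93), including Ccna2 at -1.62 ± 0.36 and Cdk1 at -1.44 ± 0.28. The direction depended on the tissue: 10 of the 22 were higher and 1 lower against prostate (15.6% higher and 19.7% lower over all genes), and 6 were higher, a share near the 29.3% of all genes, and none lower against liver, while 19 were lower against intestine, 19 against stomach (25.7%) and 15 against uterus. Among the 14 middle-range arrays 1 of the 22 was lower (7.86% of all genes), with Ccna2 at -1.13 (adjusted p = 0.393) and Cdk1 at -0.77 (adjusted p = 0.32). Genes induced by dissociation rose in 12 of 16 with none lower (median 0.96), among them Ier3 by 2.98 ± 0.40, Klf2 by 2.16 ± 0.34 and Egr2 by 2.18 ± 0.23. None was higher against prostate or uterus, while 15 were higher against intestine, 15 against liver and 13 against stomach. Interferon genes rose in 4 of 10 and fell in 2, where 24.8% of all genes were higher and 28.6% lower, with Gbp2 at 2.57 ± 0.29. No interferon gene was higher against prostate (4 lower, where 19.7% of all genes were lower, median -0.86) or uterus (3 lower, where 18.9% were, median -0.88). Against stomach 8 were higher, against intestine 5 and against liver 3, the last near the 29.3% of all genes. Without lung positive 2, 3189 of the 14104 genes tested were higher over the mean of the 5 tissues. Of the 10 interferon genes 2 were then higher, a share near that of all genes, and 11 of the 17 macrophage and monocyte genes.

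Counts of other lists, the following among them, moved by more than 1.5 times within the subsets of arrays. Among the 21 lowest-numbered arrays, 7 of 17 macrophage and monocyte genes were higher (median 1.09), 5 of 12 neutrophil genes (median 0.84) and 1 of 8 mesothelial genes, with 3 lower (median 0.13). Among the 14 middle-range arrays, where 10.2% of all genes were called higher, 5 of 15 pan-endothelial genes were higher (median 2.90), 7 of 13 surfactant and type 2 genes (median 2.08), 6 of 10 dendritic cell genes (median 2.42), 3 of 8 ciliated cell genes (median 0.88), 3 of 11 smooth muscle genes (median 1.38), 4 of 19 transcription factors (median 0.35) and 1 of 14 Hox genes of groups 1 to 8 (median 0.39). That subset has 3 lung arrays, its intestine and stomach arrays are Prom1-negative alone, and it includes the stomach array of lowest upper quartile. Other lists whose counts moved were the gastric, airway basal and interferon lists among the 21 lowest-numbered arrays, with medians of -1.10, -0.97 and 0.08. In the middle range the T and NK cell, B cell and macrophage and monocyte lists did too, with medians of 0.64, 1.78 and 1.98. So did the interferon, prostate and uterine lists there, with medians of 0.56, -0.36 and -0.25.

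**Figure D4:**
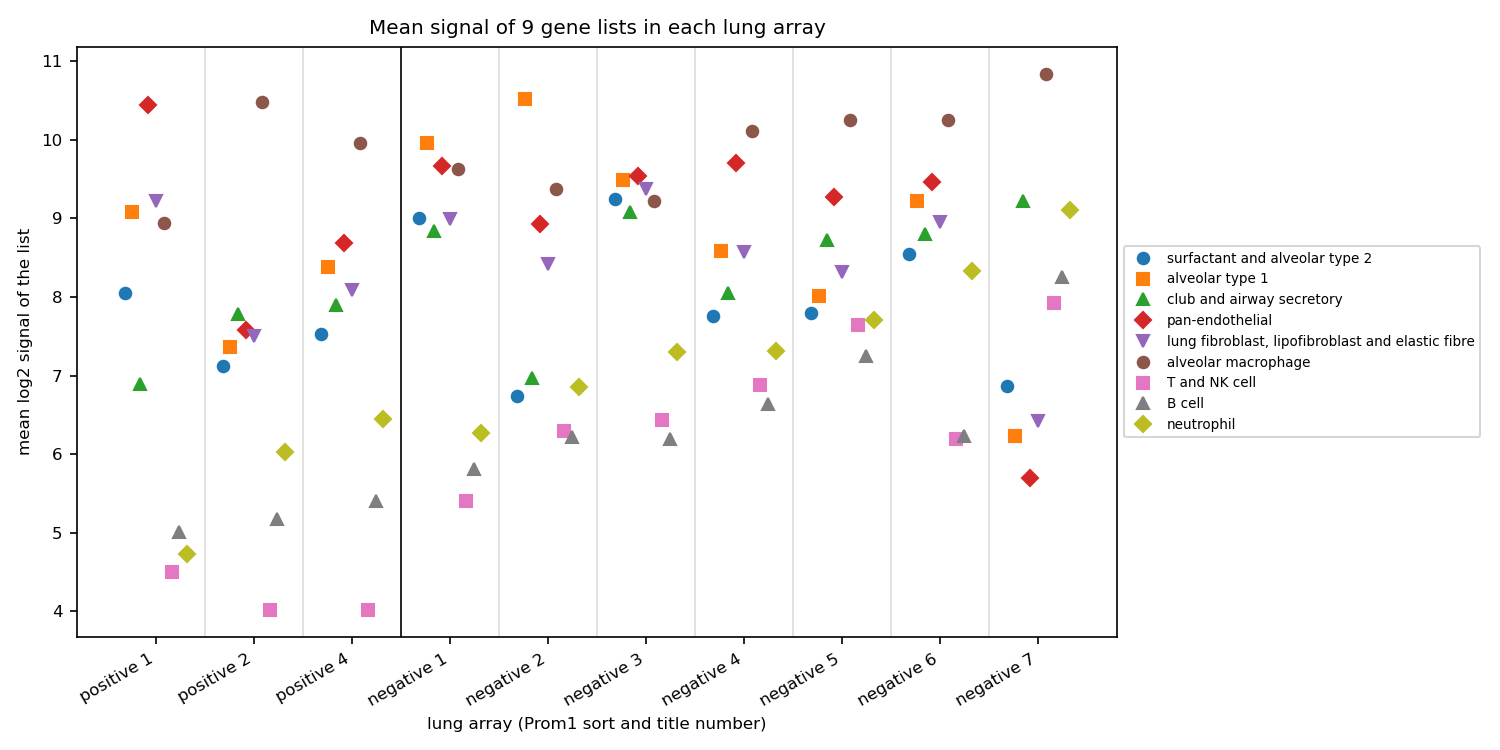
Mean log2 signal of 9 gene lists in each of the 10 lung arrays, with the 3 Prom1-positive arrays left of the 7 Prom1-negative ones. Lung negative 7 has pan-endothelial genes at 5.70 and alveolar type 1 genes at 6.23, the lowest of the lung arrays, and alveolar macrophage genes at 10.84 and neutrophil genes at 9.10, the highest.

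The lung difference was then set out within each sort. Among Prom1-positive cells 4844 genes were called (34.3%), 2363 higher (16.8%) and 2481 lower (17.6%), and among Prom1-negative cells 6622 (47%), 3244 higher (23%) and 3378 lower (24%). The positive comparison rests on 3 lung arrays. Both sorts called 4155 genes, 4149 of them in the same direction (2090 higher and 2059 lower) and 6 in opposite directions. A test of the difference between the sorts called 14 genes (0.0993%), 4 with a more positive (0.0284%) and 10 with a more negative lung difference in positive cells (0.0709%), and 1020 at an unadjusted p under 0.05. The share called was 0.0496% without lung positive 4 and 0.737% without lung positive 1.

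For the genes with the largest positive interaction, the lung difference was positive in Prom1-positive cells and negative in Prom1-negative cells. Vsig4, a complement receptor of resident macrophages, had 6.75, 9.13 and 9.82 in Prom1-positive and 2.19, 3.11 and 4.33 in Prom1-negative lung arrays, with no overlap. Its lung difference was 3.37 in positive and -1.71 in negative cells, an interaction of 5.08 ± 0.83 (SE, adjusted p = 0.0011). Ccl24, an eosinophil-attracting chemokine, had 8.19, 10.22 and 10.23 in positive and 3.53, 4.77 and 5.18 in negative arrays (interaction 4.34 ± 0.84, adjusted p = 0.00971). Cd5l, a secreted macrophage protein, had 6.29, 7.30 and 11.11 in positive and 2.98, 4.10 and 5.08 in negative arrays (3.84 ± 0.82, adjusted p = 0.0322). Ccdc106 had an interaction of 1.65 ± 0.35.

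Genes with a negative interaction had their higher lung signal in Prom1-negative cells. Stfa2l1, a stefin-type protease inhibitor gene, had 2.96, 3.73 and 4.41 in Prom1-positive and 6.16, 7.54 and 9.54 in Prom1-negative lung arrays (interaction -3.77 ± 0.55, adjusted p = 0.000248). Mmp8, the neutrophil collagenase, had 3.17, 3.17 and 3.74 in positive and 4.74, 5.56 and 8.45 in negative arrays (-2.41 ± 0.45, adjusted p = 0.0066). Cd28, the T cell costimulatory receptor, had 3.45, 3.63 and 4.27 in positive and 5.03, 7.02 and 8.28 in negative arrays (-2.54 ± 0.55, adjusted p = 0.0327). None of these 3 genes overlapped between the sorts. Arg2, a mitochondrial arginase, and Sidt1 had interactions of -2.67 ± 0.49 and -2.51 ± 0.52.

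The calls of 6 of these 9 genes depended on single lung arrays. Without lung positive 4 the interaction was not called for Cd5l (2.40, adjusted p = 0.425), Ccdc106 (1.47, 0.185), Cd28 (-2.37, 0.164), Ccl24 (4.0, 0.0843), Sidt1 (-2.48, 0.0843) and Mmp8 (-2.31, 0.0608). Without lung positive 2, the array with prostate signal, it was not called for Ccdc106 (1.15, adjusted p = 0.324), Cd28 (-2.46, 0.114), Ccl24 (4.0, 0.0766) and Sidt1 (-2.51, 0.0766). Cd28 was also not called without lung negative 4, 5 or 7, Cd5l without lung negative 4 or 7, and Sidt1 without lung negative 5. With all 117 samples in the fit Mmp8, Arg2, Cd5l and Stfa2l1 were not called (adjusted p = 0.237, 0.151, 0.0593 and 0.0593). Of the 9 genes, Vsig4 alone was called under every alternative in which the interaction was fitted.

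Marker lists moved alongside. The mean signal of macrophage and monocyte genes was 7.79 to 9.93 in Prom1-positive and 6.69 to 7.53 in Prom1-negative lung arrays. Lower in positive arrays with no overlap were T and NK cell genes, at 4.02 to 4.50 in positive and 5.40 to 7.92 in negative arrays, and B cell genes, at 5.0 to 5.40 in positive and 5.81 to 8.26 in negative arrays. The same held for fibroblast and matrix genes, at 6.37 to 7.54 in positive and 7.66 to 8.89 in negative arrays, and for mesothelial genes, at 4.0 to 4.51 in positive and 5.07 to 7.24 in negative arrays. Neutrophil genes overlapped, at 4.73 to 6.44 in positive and 6.27 to 9.10 in negative arrays.

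The shift in T and NK cell genes between the sorts was also present outside lung. They were at 3.56 to 3.69 in positive and 5.26 to 6.35 in negative prostate arrays, at 3.50 to 3.69 in positive and 5.59 to 7.51 in negative liver arrays, and at 3.49 to 3.65 in positive and 4.72 to 5.03 in negative uterus arrays, and the sorts overlapped in intestine and stomach. B cell genes were likewise lower in positive cells of prostate, at 3.76 to 4.47 in positive and 4.82 to 6.19 in negative arrays. They were also lower in liver, at 3.78 to 4.62 in positive and 5.0 to 6.96 in negative arrays. In intestine they were at 3.77 to 3.87 in positive and 4.01 to 5.96 in negative arrays, and the sorts overlapped in stomach and uterus. Fibroblast and matrix genes were also lower in positive cells, with no overlap, in prostate (5.14 to 7.02 against 8.34 to 9.55), liver and uterus. Mesothelial genes were so in prostate (4.62 to 4.89 against 5.35 to 7.0), liver, stomach and uterus. Macrophage and monocyte genes were higher in positive cells of uterus (8.94 to 9.66 against 5.99 to 6.40) and stomach. They were lower in positive cells of liver and overlapped in prostate and intestine. None of the genes on the T and NK cell or B cell lists had a called interaction, and Cd28, which had one, is on neither list. Of the 17 T and NK cell genes, 1 was called higher than in the other tissues among positive cells and 12 among negative cells, and the difference between those counts was not tested. The part of these cell types, and of the Actb 3' minus 5' signal, in the 9 interactions was not tested.

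**Figure D5:**
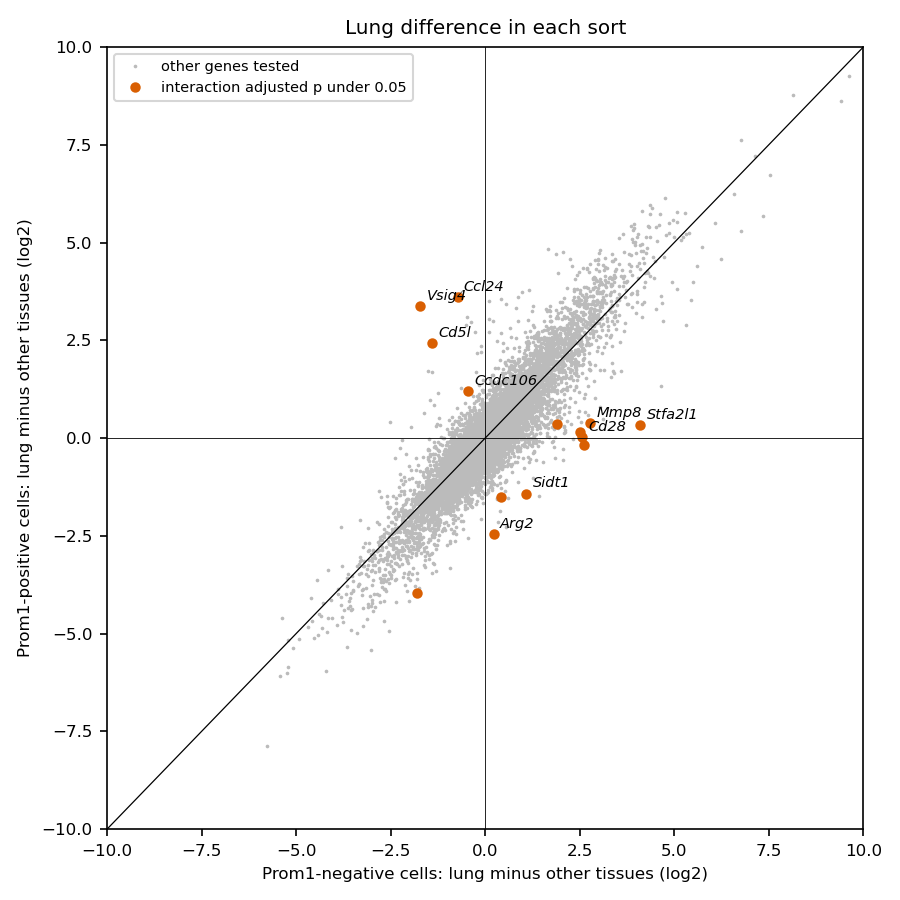
Lung minus other tissues (log2) in Prom1-positive cells against that in Prom1-negative cells for each gene tested, with the line of equal differences and the 14 genes whose interaction had an adjusted p under 0.05 in orange. Vsig4, Ccl24 and Cd5l lie above the line and Stfa2l1, Mmp8, Cd28, Sidt1 and Arg2 below it.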

How the data were processed

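Log2 signals deposited by the authors as 1 table of 45141 probe sets were used as given; per the submitters' processing notes they came from RMA in Partek 6.6. Probe sets with 1 gene symbol (28898; 551 had several and 15692 none) were reduced to the one with the highest mean per gene, giving 17097 genes, of which 14104 exceeded their array's median in at least 3 of 51 arrays. limma 3.58.1 in R 4.3.3 fitted tissue by sort means, and contrasts weighted the sorts and tissues equally, with Benjamini-Hochberg adjustment over all genes tested. Named genes were the members of 36 lists (493 of 548 entries measured), the 15 largest rises and falls with no overlap (falls were completed with genes below each tissue mean) and up to 5 interactions each way, passing over predicted genes. Members and lists were chosen with earlier results of these data known, and the pair of arrays left out together, like lung positive 2 for the genes with no overlap, was chosen after seeing the data. The fit was tested on simulated data. Alternatives were other scalings, filters, covariates, weights, subsets and each array left out. Figures used matplotlib 3.10.9, with Python 3.11. Genome positions are RefSeq's on GRCm38.p6. Tumour groups other than the adenomas were not used here, except in the fit with all 117 samples.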

Additional observations from a re-analysis of the deposited data

Results flagged for a closer look

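Within groups of 4 to 7 arrays, 55 of 230 gene and group combinations had 1 array far from the rest by Dixon's criterion, which chance alone meets in about 1 of 20 for a single combination. Many combinations were genes in the same Prom1-negative lung arrays, so they are not independent and their count cannot be set against that share. Lung Prom1-negative array 7 gave 39 of them. It was low in Aplnr (5.81), Bmp4 (4.70), Bmp5 (4.04), Calcrl (8.45), Cav1 (9.64), Ccl17 (5.03), Cdh5 (6.09), Cldn5 (7.43), Clic5 (5.03), Ednrb (5.21), Emp2 (7.49), Fendrr (4.97), Fmo2 (6.40), Foxf1 (5.14), Gucy1a1 (4.79), Gucy1b1 (3.33), Hoxb5 (2.93), Ier3 (9.65), Inmt (9.67), Itga8 (5.17), Kit (4.41), Mfap4 (5.57), Mgp (11.59), Notch3 (4.87), Npnt (4.07), Pecam1 (6.54), Postn (6.81), Ptgis (7.01), Robo4 (3.62), Tbx2 (3.18), Tbx4 (3.37), Tbx5 (3.41), Tcf21 (5.67), Tek (6.92), Tmem100 (8.06). It was high in Clca1 (3.32), H2-Ob (9.47), Mmp8 (8.45), Vipr1 (5.17), although Clca1 was under that array's median signal of 3.74. Endothelial, fibroblast and capillary genes make up most of the low values. Without this array 91 genes in place of 39 had no overlap, and called counts changed in 16 of the 36 lists, by at most 2 genes each.

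Other lung arrays stood out singly. Lung negative 1 was high in Cldn4 at 6.15 and low in S100a8 at 10.06 and S100a9 at 10.79. Lung negative 2 was low in the airway genes Cyp2f2 at 7.54 and Scgb3a1 at 5.94. Lung negative 5 was high for its group in Spink1 at 3.67, under that array's median signal of 3.76, and lung negative 6 in Alb at 7.19.

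Outside lung, prostate negative 3 was far above the other prostate negative arrays in Sftpc (8.72), Scgb1a1 (9.68), Chil3 (10.71), Chil4 (10.02) and Krt79 (6.08). The next highest prostate negative values were 3.35 for Sftpc and 3.89 for Chil3, and the source of the signal was not tested. Liver positive 3 stood apart in Sftpc (3.18, under that array's median signal of 3.78) and Chil4 (4.25), intestine negative 5 in Sec14l3 (4.52) and prostate negative 1 in Lepr (4.06).

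The lung difference differed between the Prom1 sorts by an interaction test in 9 named genes. It was larger in Prom1-positive cells for Vsig4 (5.08), Ccl24 (4.34), Cd5l (3.84) and Ccdc106 (1.65). It was smaller in Prom1-positive cells for Stfa2l1 (-3.77), Arg2 (-2.67), Cd28 (-2.54), Sidt1 (-2.51) and Mmp8 (-2.41).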

How the results depend on the processing

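The count of genes called between lung and the other tissues was 7528, ranged from 6820 to 8424 when 1 array was left out, and moved past 1.5 times under 1 alternative, to 2546 (1437 higher, 1109 lower) over the 14 arrays in the middle range of title numbers, 3 of them lung, which hold few tissues. The split between higher and lower was 46.4% higher over all samples and 56.4% higher in that subset. Leaving out 1 array gave 3960 to 5938 in positive cells and 6111 to 7573 in negative cells. Leaving out 1 lung array gave 7660 to 8036 against intestine, 6246 to 6916 against liver, 4590 to 4992 against prostate, 7212 to 7846 against stomach and 3834 to 4546 against uterus. With the title number as a replicate block the counts were 7414, 4704 in positive and 6572 in negative cells and 0.0851% of genes for the interaction, and Cd28 (adjusted p = 0.0515) and Sidt1 (0.085) lost their interaction calls. Only 7 of 19 pairs with the same closing title number deviated together, so those numbers were not taken to pair samples. Positive and negative arrays of a tissue often carry consecutive opening numbers in their titles. Pairing by the opening numbers was not tested, and the reported tests treated the arrays as unpaired. The interaction moved most, from 0.0993% of genes tested as reported to 0.284% with all 117 samples in the fit, 2.67% with array weights, 0.198% with probe sets averaged, 0.191% with upper quartile as a covariate and 0.532% without arrays of upper quartile under 6. It ranged from 0.0496% without lung positive 4 to 0.737% without lung positive 1, and exceeded 1.5 times the reported share without lung negative 1 (0.184%), lung negative 2 (0.269%), liver negative 2 (0.163%), liver positive 2 (0.404%), prostate negative 1 (0.234%), prostate positive 3 (0.234%), the stomach negative 2 array of lowest upper quartile (0.312%) or stomach negative 3 (0.206%). Set against the highest tissue in place of the mean of 5, the differences turned for Acta2 -0.58, Cbr2 -0.21, Ccl5 -0.68, Cd3d -0.50, Col3a1 -1.51, Cyp2f2 -2.48, Dpt -0.67, Egr2 -0.59, Marco -1.11, Pdpn -0.74, Postn -0.23, Pparg -0.26, Retnla -0.85, Robo4 -0.87, Sftpd -1.15, Trf -2.23. Set against the lowest tissue they turned for Alb 1.86, Apoa1 0.41, Ccna2 1.17, Cdk1 1.30, Cldn4 0.30, Clec4f 0.26, Epcam 4.66, Fabp2 0.14, Foxa1 1.75, Gkn2 0.11, Hoxa10 0.15, Hoxb13 0.042, Prom1 3.50, Spdef 0.017, Spink1 0.54, Vipr1 0.22. Leaving liver out turned Alb to 0.74. No read depth applies to arrays, and signal near the array median limits the low groups.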
